A study of Homo sapiens with 40 samples.

Results

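TXNRD1 encodes the cytosolic thioredoxin reductase, and the mRNA of this enzyme fell to 31% of its control level after small interfering RNA (siRNA) against IGF2BP2 in RKO cells, a human colorectal carcinoma line. The gene was examined with 8 other antioxidant genes that the transcription factor NRF2 is known to activate: TXN, SRXN1, NQO1, GCLM, GCLC, HMOX1, OSGIN1 and SLC7A11. The 9 members were found by symbol among the 19962 genes of the count table, each with 1 row. The fall of TXNRD1 is what the set was built around, so its values are a description with no test. The other 8 were chosen by name, with earlier results of these data already known. The question the set asks is whether they moved with TXNRD1. All 9 passed the filter on low counts.

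The data are poly(A) RNA sequencing libraries, 40 in all, in 10 groups of 4. All cells, controls included, carried Cas9 under a doxycycline-inducible promoter, GFP and a BFP-marked vector with a pair of guide RNAs, and they were a sorted population after lentiviral transduction. The guides were directed against AAVS1 (sgAAVS1, a control locus), IGF2BP2 (sgIGF2BP2) or IGF2BP3 (sgIGF2BP3). Each line was treated with doxycycline (Dox, 250 ng/mL for 72 hours), which induces Cas9, or with the solvent DMSO. The sgIGF2BP2 line was also transfected with a non-targeting siRNA (siControl) or an siRNA pool against IGF2BP2 (siIGF2BP2), and the sgIGF2BP3 line with siControl or a pool against IGF2BP3 (siIGF2BP3). The pools were used at 75 nM for 48 hours, and no dose or time is listed for siControl. These 4 groups received no DMSO or Dox, and both siRNA arms have inducible Cas9 and guides that were not induced. Both targets encode proteins that bind mRNA, and the title of the series places IGF2BP3 and RNA metabolism in the response to unfolded protein. All cells were given the nucleoside s4U (250 µM for 2 hours) before lysis. Each library came from 1 well, and nothing in the labels says that the 4 wells of a group were separate cultures, so p-values measure the spread between these wells.

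NRF2 (gene NFE2L2) is held at a low level by KEAP1, an adaptor that brings it to the CUL3 ubiquitin ligase for degradation. Oxidants and electrophiles disable KEAP1, and NRF2 then pairs with small MAF proteins at antioxidant response elements in the DNA. BACH1 is a repressor that binds the same elements, and HMOX1 is its best known target. The genes so activated feed the thioredoxin system, in which TXNRD1 uses NADPH to reduce thioredoxin (TXN), and the glutathione system, whose first step is catalysed by glutamate-cysteine ligase (GCLC and GCLM).

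The antioxidant response element has the core letters TGACNNNGC. The 3 stretches below are shown because TXNRD1 and GCLM hold such letters near a start site. After siIGF2BP2 the log2 fold change was -1.69 for TXNRD1 and 0.19 for GCLM. With siControl against DMSO both were lower, TXNRD1 by -0.30 in both lines and GCLM by -0.43 and -0.36 (sgIGF2BP2, then sgIGF2BP3 cells). A part of these letters in either change was not tested. Promoter windows from RefSeq (GRCh38.p14, 250 bases before to 50 after a start) were available for 7 of the 9 members, in 8 windows, because TXNRD1 has 2 starts. The core was searched on both strands. It was present in 3 of the 8 member windows and in 4687 of all 35116 windows (13.3%). Capitals mark the match, and each stretch has 35 bases on either side or runs to the last base before the start.
TXNRD1, chr12:104215645-104215723 (+): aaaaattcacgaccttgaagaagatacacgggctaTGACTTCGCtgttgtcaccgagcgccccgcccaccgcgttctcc
TXNRD1, second start, chr12:104286895-104286973 (+): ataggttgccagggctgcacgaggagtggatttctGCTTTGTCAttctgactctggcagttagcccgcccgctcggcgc
GCLM, chr1:93909431-93909499 (-): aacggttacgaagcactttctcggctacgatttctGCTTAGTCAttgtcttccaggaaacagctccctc
The first base of the match lies 99 bases before the first TXNRD1 start, 102 before the second and 34 before that of GCLM. The match at the second TXNRD1 start and that of GCLM are on the opposite strand. The first TXNRD1 window held another match 8 bases before its start. No match was found in the windows of TXN, SRXN1, NQO1, GCLC and OSGIN1, which says only that these letters are not in those windows. Known elements of several of these genes lie farther out, and a match is a description of letters, not of binding.

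Library totals were between 1.00e+07 and 2.48e+07 counts (median 1.35e+07), and values below are CPM, counts relative to library size scaled with edgeR's TMM factors, unless another scale is named. The targeted mRNAs were lower where the labels say so. IGF2BP2 was at 108 CPM ± 4.10 (SD, n = 4) with siControl and 30.2 ± 1.08 with siIGF2BP2, and at 85.3 ± 1.58 with DMSO and 33.9 ± 3.50 with Dox. IGF2BP3 was at 170 ± 4.78 with siControl and 24.7 ± 1.56 with siIGF2BP3, and at 180 ± 4.09 with DMSO and 56.2 ± 3.62 with Dox. IGF2BP3 was also lower with Dox in sgIGF2BP2 cells, where it is not the target. There it went from 179 ± 9.22 to 151 ± 4.24 (log2 fold change -0.25, edgeR adjusted p = 2.93e-06), with no overlap. Of 8 colorectal epithelial markers, EPCAM, KRT8, KRT18 and CDX2 were expressed in every library, while CDH1, KRT19, KRT20 and VIL1 had at most 4 counts in any library. Of 7 markers of other cell types only VIM passed the filter. With siIGF2BP2, KRT8, KRT18 and VIM passed the test described below, at 0.55, -0.49 and 0.24 on the log2 scale, while EPCAM and CDX2 did not. With siControl against DMSO all 3 fell in both lines, KRT8 by 0.29 and 0.27, KRT18 by 0.23 and 0.12, and VIM by 0.245 and 0.19 (sgIGF2BP2, then sgIGF2BP3 cells). None of the 5 was called after siIGF2BP3 or Dox. Their part in the results was not tested. In bulk RNA, fewer cells of a type and less RNA per cell cannot be told apart.

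TXNRD1 (ENSG00000198431, chr12:104215779-104350305, plus strand) was among the more abundant members. With siControl in the sgIGF2BP2 line the 4 libraries gave 333, 310, 312 and 305 CPM, and with siIGF2BP2 they gave 101, 92.4, 99.8 and 98.3 CPM. The groups were far apart, and the change was -1.69 on the log2 scale (SE 0.0352). Among the 11428 genes tested, 3 had a lower log2 fold change in this comparison. They were SYN1, SOX9 and IGF2BP2 itself, named here after their values were seen.

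No other treatment came near that change. With DMSO in the sgIGF2BP2 line TXNRD1 was at 410, 376, 382 and 382 CPM, and with Dox at 359, 358, 358 and 387 CPM. These libraries overlapped, and the change was -0.08 (SE 0.0318). IGF2BP2 mRNA was at 33.9 CPM there. The effect of siIGF2BP2 minus that of Dox in this line was -1.61 (SE 0.0475). In the sgAAVS1 line TXNRD1 was at 396, 384, 373 and 382 CPM with DMSO and 353, 351, 356 and 362 with Dox, a change of -0.11 with no overlap. In the sgIGF2BP3 line it was at 399, 397, 396 and 397 with DMSO and 384, 368, 384 and 378 with Dox, a change of -0.07, also with no overlap. After siIGF2BP3 the values were 310, 327, 310 and 321 CPM against 322, 326, 319 and 321 with siControl, which overlapped (-0.02, SE 0.0323).

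TXNRD1 also changed with siControl against DMSO, by -0.30 in both lines, to 81.4% in sgIGF2BP2 cells and 81.0% in sgIGF2BP3 cells, with no overlap. Those comparisons use the siControl libraries of the siRNA comparisons and the DMSO libraries of the Dox comparisons. Transfection, the non-targeting siRNA and the solvent all differ between siControl and DMSO and cannot be told apart. No hours are listed for either, so the time in treatment may differ too. In the order of group means TXNRD1 ran from 397 CPM in sgIGF2BP3 DMSO to 97.8 in siIGF2BP2. Neighbours in that order did not overlap at 2 places: between sgAAVS1 Dox (355 ± 4.72) and sgIGF2BP3 siControl (322 ± 3.14), and between sgIGF2BP2 siControl (315 ± 12.4) and siIGF2BP2 (97.8 ± 3.70).

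**Figure D1:**
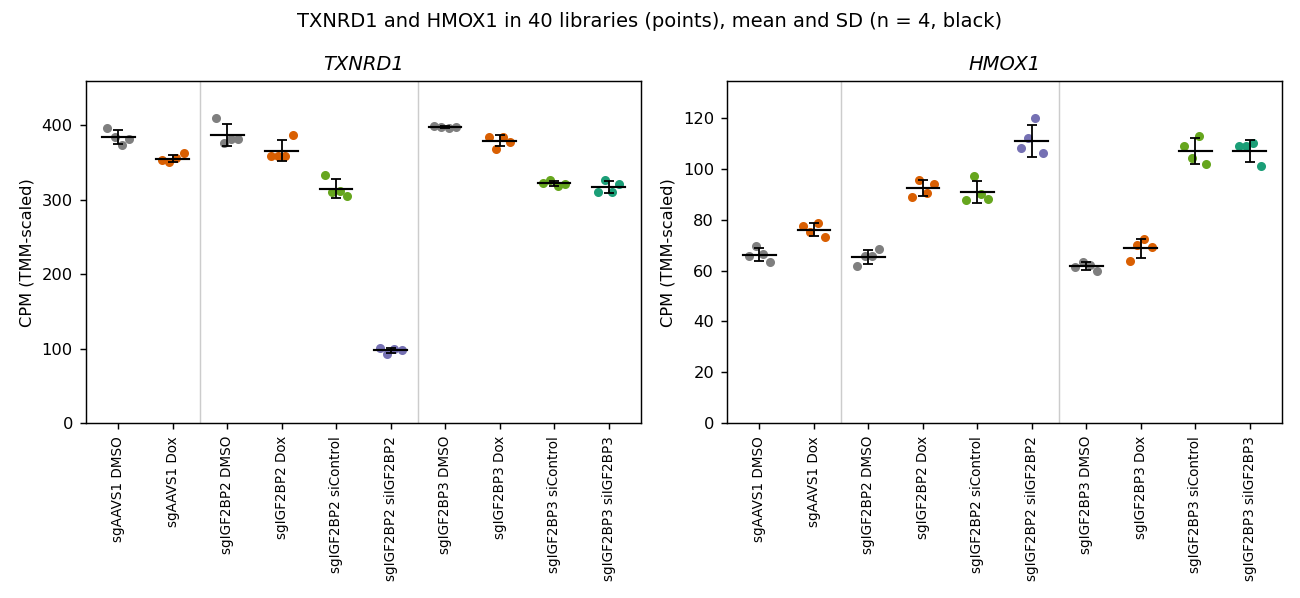
CPM of TXNRD1 (left) and HMOX1 (right) in each of 40 libraries (points, coloured by treatment) across the 10 groups, with group mean and SD (black, n = 4). TXNRD1 lies between 305 and 410 CPM outside siIGF2BP2 and between 92.4 and 101 CPM in it, while HMOX1 is higher in the siRNA groups (87.5 to 120 CPM) than with DMSO (60.0 to 69.5 CPM).

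Because TXNRD1 was singled out in the siIGF2BP2 comparison, values of every gene there, and in the differences that contain it, are description: a gene is said to pass when its edgeR adjusted p was under 0.05, and no p is printed. Of the 8 other members 4 passed after siIGF2BP2, 2 higher and 2 lower, where 36.8% of all tested genes passed. HMOX1 (0.30, SE 0.0427) and GCLM (0.19, SE 0.0693) were higher, and TXN (-0.20, SE 0.0412) and GCLC (-0.16, SE 0.0596) were lower. Their sizes, at most 1.23-fold, stand beside the 3.22-fold fall of TXNRD1. The median log2 fold change over the 8 members was -0.004, against 0.011 over all tested genes. Without siIGF2BP2 replicate 2 or replicate 4 only 2 of the 8 passed, HMOX1 and TXN, beside 33.6% and 32.7% of all genes.

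After siIGF2BP3 none of the 8 members was called by edgeR's quasi-likelihood test, where 2.34% of genes were. At an unadjusted p under 0.05 there was 1, NQO1, and the share of all genes at that threshold was not counted. DESeq2 called 0 of the 8, beside 3.12% of all genes. The largest change, that of SRXN1, was 0.41 with a 95% interval from -0.00719 to 0.818.

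TXN (ENSG00000136810, chr9:110243811-110256640, minus strand) encodes thioredoxin, the small protein that TXNRD1 reduces. It was at 437, 440, 444 and 461 CPM with siControl and at 363, 375, 434 and 376 CPM with siIGF2BP2. All 4 values with siIGF2BP2 lay below the lowest control, replicate 3 just below it, and the mean fell from 445 to 387 CPM. TXN did not pass after siIGF2BP3 (-0.03) or Dox in any line (-0.07 to 0.02). Dox replicate 2 of the sgIGF2BP2 line stood at 499 CPM against 402, 423 and 437 in the others. Without it TXN was called lower after Dox in that line, by -0.11 (adjusted p = 0.0466, against 0.582 with it). The difference between both siRNA effects was -0.18 (SE 0.0584) and passed. It no longer passed without siControl replicate 4 or any of siIGF2BP2 replicates 1, 2 and 4. GENCODE lists 7 processed pseudogenes of TXN, none of them in the count table. How reads that match both TXN and a pseudogene were treated is not stated, so the level of TXN is uncertain.

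SRXN1 (ENSG00000271303, chr20:646615-653370, minus strand) encodes sulfiredoxin, which repairs overoxidised peroxiredoxins. It was the most variable member within groups. With siControl in the sgIGF2BP2 line it was at 4.13, 4.92, 9.11 and 10.7 CPM, and with siIGF2BP2 at 7.19, 5.77, 4.16 and 5.67 CPM. These groups overlapped widely (-0.30, SE 0.208). The gene passed in that comparison only without siControl replicate 1, where the change was -0.53. Dox means were higher than DMSO means in all 3 lines, by 0.18 to 0.46, and none passed. Of the alternative fits 3 of 13 called the change in sgIGF2BP2 cells and 1 of 12 that in sgIGF2BP3 cells. Of its exon bases 2292 are shared on the same strand with AL121758.1, listed at 0 in every library, so its counts are uncertain.

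NQO1 (ENSG00000181019, chr16:69706996-69726951, minus strand) encodes a quinone reductase that is widely used as a readout of NRF2. It was at 85.2, 85.4, 83.4 and 84.7 CPM with siControl and at 84.4, 78.7, 94.2 and 82.2 CPM with siIGF2BP2, which overlapped (0.00, SE 0.0414, 95% interval -0.0779 to 0.0844). NQO1 was lower after Dox in sgAAVS1 cells (-0.11, adjusted p = 0.0478) and in sgIGF2BP2 cells (-0.12, adjusted p = 0.0313), with no overlap of libraries in either line. Both calls are marginal: the first was lost in 9 and the second in 6 of 13 alternative fits. With siIGF2BP3 its 4 libraries (92.5 to 97.5 CPM) were all above siControl (85.9 to 91.3 CPM), with adjusted p = 0.14.

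GCLM and GCLC are the modifier and the catalytic subunit of glutamate-cysteine ligase, which makes the precursor of glutathione. GCLM (ENSG00000023909, chr1:93885205-93909456, minus strand) was at 25.9, 26.7, 28.3 and 27.7 CPM with siControl and at 28.3, 31.9, 30.0 and 32.9 CPM with siIGF2BP2, so the lowest siIGF2BP2 library about equalled the highest control. The 2 subunits moved in opposite directions, since GCLC (ENSG00000001084, chr6:53497341-53616970, minus strand) was at 34.1, 30.0, 31.5 and 32.2 CPM with siControl and at 30.6, 28.5, 26.9 and 28.7 CPM with siIGF2BP2. GCLC libraries overlapped. GCLM no longer passed without siControl replicate 1 or 2 or siIGF2BP2 replicate 2 or 4. GCLC no longer passed without siControl replicate 1 or siIGF2BP2 replicate 2, 3 or 4, or with only these groups fitted. Of the exon bases of GCLC 529 are shared on the same strand with another gene model.

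GCLM also fell with siControl against DMSO, by 0.43 in sgIGF2BP2 cells (adjusted p = 1.05e-06) and by 0.36 in sgIGF2BP3 cells (adjusted p = 4.59e-05). In sgIGF2BP2 cells it went from 38.5, 33.0, 33.2 and 42.0 CPM with DMSO to the siControl values above, and the groups were apart in both lines. GCLC did not pass in either line. GCLC rose after Dox in sgAAVS1 cells (0.20, adjusted p = 0.0119) and in sgIGF2BP2 cells (0.16, adjusted p = 0.0377). In sgAAVS1 cells it was at 28.5, 33.0, 30.5 and 32.6 CPM with DMSO and 38.0, 37.1, 32.4 and 35.7 with Dox, where 1 Dox library lay within the DMSO range. The call in sgAAVS1 cells was lost without DMSO replicate 1 or Dox replicate 1. The call in sgIGF2BP2 cells was lost in 8 of 13 alternative fits, among them DESeq2.

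**Figure D2:**
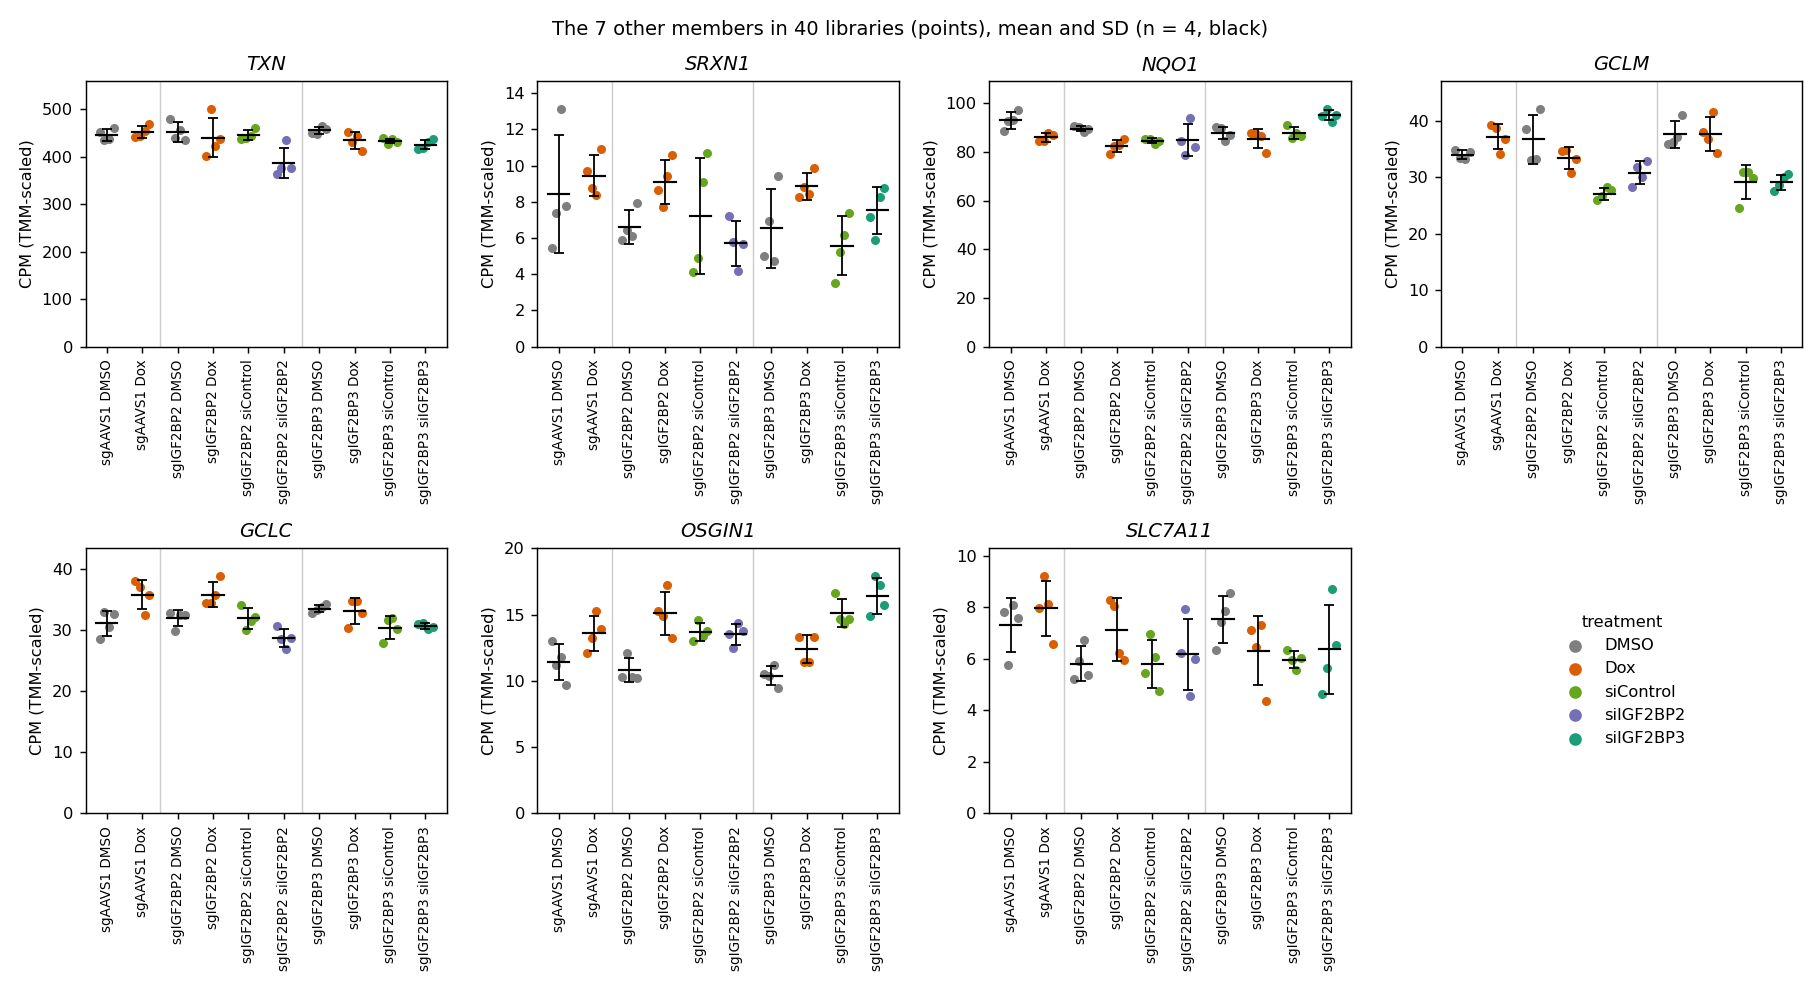
CPM of the 7 other members in each of 40 libraries (points) across the 10 groups, with group mean and SD (black, n = 4); each vertical axis starts at 0 and has its own scale. TXN is lowest in siIGF2BP2 (363 to 434 CPM), GCLM is lower in the siRNA groups than with DMSO, and SRXN1 and SLC7A11 spread widely within groups.

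HMOX1 (ENSG00000100292, chr22:35380361-35394214, plus strand) encodes heme oxygenase, which breaks down heme, and it changed in more comparisons than any other member. With siControl it was at 87.5, 97.0, 90.2 and 88.1 CPM, and with siIGF2BP2 at 108, 112, 120 and 106 CPM. The groups did not overlap, and the change passed in all 13 alternative fits (0.26 to 0.33). With siIGF2BP3 HMOX1 was at 109, 109, 110 and 101 CPM against 109, 104, 113 and 102 CPM with siControl, and these overlapped (0.00, SE 0.0427). The difference between both siRNA effects was 0.30 (SE 0.0604) and passed in all 21 alternative fits. The siControl level itself differed between the lines, with means of 90.7 and 107 CPM, and siIGF2BP2 brought it to 111 CPM, close to that of siIGF2BP3 at 107 CPM.

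Dox raised HMOX1 in all 3 lines. In sgIGF2BP2 cells it went from 61.7, 65.9, 65.6 and 68.3 CPM with DMSO to 89.0, 95.7, 90.4 and 93.9 CPM with Dox (0.50, SE 0.0451, adjusted p = 6.55e-14). In sgAAVS1 cells it went from 65.6, 69.5, 66.4 and 63.2 CPM to 77.3, 75.1, 78.8 and 73.2 CPM (0.20, adjusted p = 0.00103). In sgIGF2BP3 cells it went from 61.2, 63.4, 62.2 and 60.0 CPM to 63.6, 70.2, 72.3 and 69.4 CPM (0.16, adjusted p = 0.0487). Dox and DMSO libraries were apart in each line, and all 12 Dox libraries were above the DMSO libraries of their own line. The call in sgIGF2BP3 cells was lost with RLE scaling, with no filter, and without any DMSO replicate or Dox replicate 2, 3 or 4 (adjusted p up to 0.151). The rise in sgIGF2BP2 cells exceeded that in sgAAVS1 cells by 0.30 (SE 0.0647, adjusted p = 0.0016), in the fit and in all 21 alternatives. The rise in sgIGF2BP3 cells did not differ from that in sgAAVS1 cells beyond the error (-0.04, 95% interval -0.173 to 0.0851).

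HMOX1 was also higher with siControl than with DMSO, by 0.47 in sgIGF2BP2 cells (adjusted p = 2.95e-13) and by 0.80 in sgIGF2BP3 cells (adjusted p = 1.61e-23). All 8 siControl libraries, at 87.5 to 113 CPM, were above every DMSO library. Whether these changes differ between the lines was not tested.

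OSGIN1 (ENSG00000140961, chr16:83948282-83966332, plus strand) encodes a growth inhibitor induced by oxidative stress. It was at 13.0, 14.6, 13.4 and 13.8 CPM with siControl and at 13.5, 12.5, 14.4 and 13.8 CPM with siIGF2BP2, which overlapped (-0.01, SE 0.0877). Dox raised it in sgIGF2BP2 cells from 10.3, 12.1, 10.3 and 10.2 CPM to 15.3, 14.9, 17.2 and 13.2 CPM, with no overlap (0.49, SE 0.0903, adjusted p = 2.63e-05). The call held in all 13 alternative fits. In sgAAVS1 cells OSGIN1 rose by 0.26 (adjusted p = 0.0454), a call lost in 10 of 13 alternatives, and in sgIGF2BP3 cells the change was 0.25 (adjusted p = 0.134). The rise in sgIGF2BP2 cells was not shown to exceed that in sgAAVS1 cells (0.23, adjusted p = 0.293). OSGIN1 was higher with siControl than with DMSO, by 0.36 in sgIGF2BP2 cells (adjusted p = 0.00248) and by 0.53 in sgIGF2BP3 cells (adjusted p = 7.88e-06). Of its exon bases 481 are shared on the same strand with another gene model.

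SLC7A11 (ENSG00000151012, chr4:138164097-138242349, minus strand) encodes the cystine importer that supplies cysteine for glutathione. Over all 40 libraries it lay between 4.37 and 9.21 CPM, the lowest member beside SRXN1. With siControl it was at 5.46, 6.95, 6.07 and 4.75 CPM and with siIGF2BP2 at 6.23, 7.93, 4.54 and 5.99 CPM. The groups overlapped, as they did in every treatment comparison, and no comparison passed. The 95% interval after siIGF2BP2 ran from -0.222 to 0.385.

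Per kilobase of exon, over the 12 DMSO libraries, TXN was the most abundant member at 395 CPM per kilobase, 6.80 times TXNRD1 (58.1). NQO1 (27.7) and HMOX1 (26.8) followed, then GCLM (6.66), GCLC (3.72), OSGIN1 (3.14), SRXN1 (2.66) and SLC7A11 (0.714). Each member was divided by all its annotated exon bases (6708 for TXNRD1, 9645 for SLC7A11), not by the length of the transcript expressed. The order is therefore approximate. For SRXN1 2292 of the 2698 exon bases are shared with AL121758.1, so its place in this order is uncertain for that reason too. Thioredoxin and its reductase stood above every other member on this scale.

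Counted over the 8 members, Dox called 4 in sgAAVS1 cells, where 15.9% of all genes were called (7.25% higher and 8.68% lower), and 4 in sgIGF2BP2 cells, where 20.4% were (10.0% higher and 10.4% lower). In each of these lines HMOX1, GCLC and OSGIN1 were higher and NQO1 was lower. In sgIGF2BP3 cells it called 1, HMOX1, where 2.64% were. The medians over the members were 0.157, 0.225 and -0.008, against 0.004, 0.008 and 0.003 over all genes. In sgAAVS1 cells 2 of 8 were called without DMSO replicate 2, 3 or 4 or Dox replicate 1, 2 or 4, and in sgIGF2BP2 cells 2 without DMSO replicate 2 or 4. With siControl against DMSO 3 of 8 were called in sgIGF2BP2 cells, where 18.4% of genes were (10.2% higher and 8.16% lower), and 3 in sgIGF2BP3 cells, where 19.4% were (10.9% higher and 8.54% lower). In each line these were HMOX1 and OSGIN1, higher, and GCLM, lower.

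The differences between effects were fitted in the same model. Dox in sgIGF2BP2 minus Dox in sgAAVS1 cells called 1 of 8 members, HMOX1, where 6.97% of genes were called. Without sgIGF2BP2 DMSO replicate 2 or 3, GCLM was called too. Dox in sgIGF2BP3 minus Dox in sgAAVS1 cells called 0 by edgeR, where 7.78% were called. At an unadjusted p under 0.05 there was 1, GCLC, and the share of all genes at that threshold was not counted. DESeq2 called 0 of the 6 to which it gave an adjusted p, beside 12.3% of all genes. Without sgAAVS1 Dox replicate 3 GCLC was called. For siIGF2BP2 minus siIGF2BP3, 2 members passed (HMOX1 and TXN), beside 18.7% of genes. For siIGF2BP2 minus Dox in sgIGF2BP2 cells, 6 passed, beside 26.1% of genes. The difference was 0.31 for GCLM, -0.50 for OSGIN1, -0.32 for GCLC, -0.20 for HMOX1, -0.16 for TXN and -0.76 for SRXN1. TXN and SRXN1 no longer passed in 8 and 11 of 21 alternative fits, and GCLM without DMSO replicate 4. A negative difference is not always a fall: HMOX1 rose in both effects (0.30 and 0.50), and OSGIN1 changed by -0.01 and 0.49. The controls differ, siControl and DMSO, and between them HMOX1 (0.47), OSGIN1 (0.36) and GCLM (-0.43) had changed in this line.

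**Figure D3:**
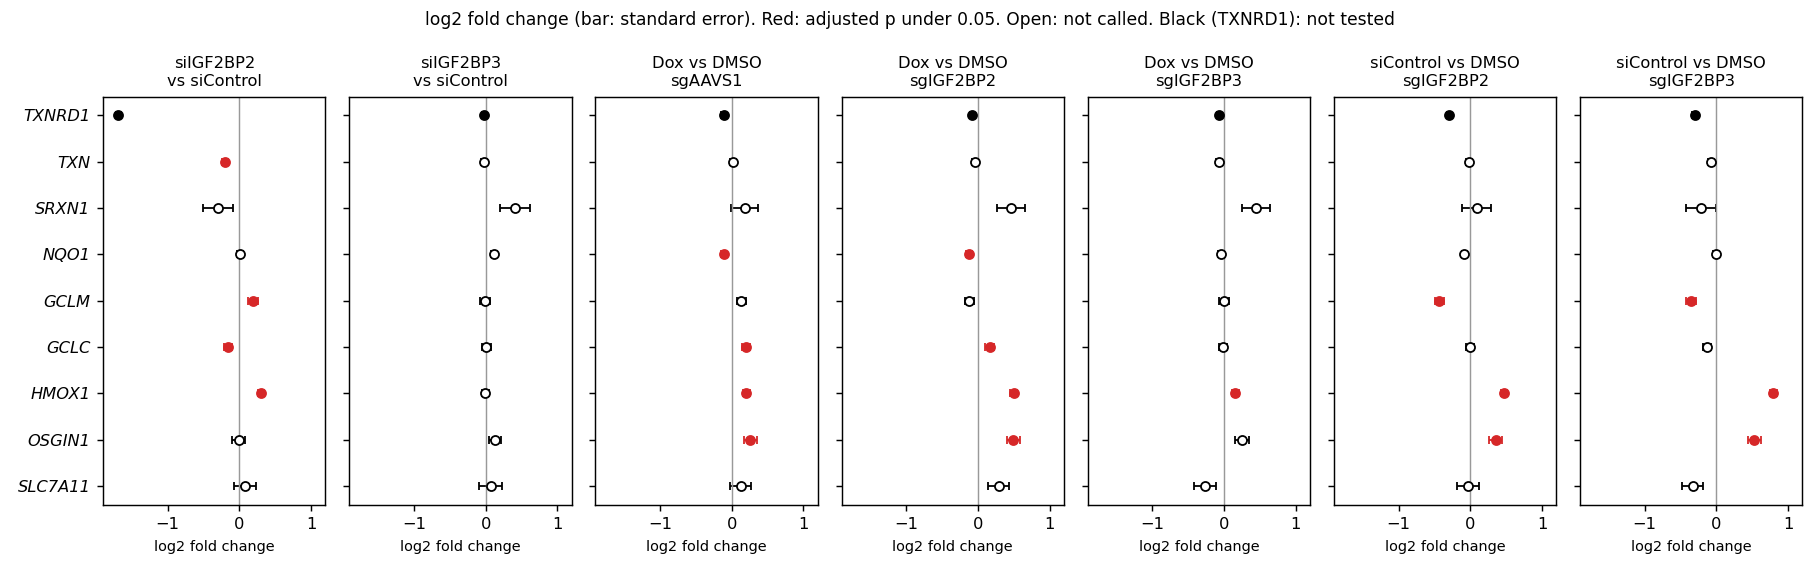
log2 fold change (horizontal axis) with its standard error for each of the 9 members (rows) in 7 comparisons (panels). Red points have an adjusted p under 0.05, open points do not, and TXNRD1 (black) was not tested; TXNRD1 alone lies below -1, after siIGF2BP2, and HMOX1 is to the right of 0 in 6 of the panels.

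The regulators of NRF2 were taken from a list of 11 genes, all of them tested. NFE2L2 was not called in any of the 5 treatment comparisons. It was at 44.3, 44.2, 48.0 and 43.9 CPM with siControl and 45.5, 48.9, 45.0 and 48.3 CPM with siIGF2BP2, which overlapped (0.06, SE 0.0552). KEAP1 was not called in any of them either and changed by 0.02 (SE 0.0462) after siIGF2BP2. With siControl against DMSO, KEAP1 was lower in sgIGF2BP2 cells (-0.16, adjusted p = 0.00953) and not called in sgIGF2BP3 cells (-0.07, adjusted p = 0.321). NRF2 is regulated mainly through protein stability, which these libraries do not measure.

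After siIGF2BP2 no regulator passed as higher and 2 of 11 as lower (18.2% in all), beside 36.8% of all genes and 18.4% in each direction. BACH1, the repressor, was at 32.9, 29.8, 28.5 and 27.4 CPM with siControl and 26.2, 23.9, 18.2 and 26.6 CPM with siIGF2BP2, a change of -0.33 (SE 0.0725) with no overlap. CUL3, the scaffold of the ligase that degrades NRF2, went from 88.3, 89.5, 92.5 and 94.1 CPM to 73.2, 75.4, 78.1 and 68.2 CPM (-0.31, SE 0.0461), also with no overlap. Both passed in all 13 alternative fits. After Dox, MAFF, a small MAF partner of NRF2, rose by 0.46 in sgAAVS1 cells (adjusted p = 4.57e-08) and by 0.38 in sgIGF2BP2 cells (adjusted p = 2.23e-06). BACH1 rose by 0.25 in sgAAVS1 cells (adjusted p = 0.00995), a call lost without Dox replicate 4 (adjusted p = 0.0541). SQSTM1, an autophagy receptor that binds KEAP1, rose by 0.20 in sgIGF2BP2 cells (adjusted p = 0.000155). In that line 4 of 11 regulators rose and none fell, where 10.0% of all genes rose. In sgAAVS1 cells 2 rose and none fell, where 7.25% of all genes rose. In sgIGF2BP3 cells 1 was called, MAFG, which rose (0.17, adjusted p = 0.0263), where 2.64% of all genes were called. The MAFG call was lost without DMSO replicate 3 or 4 or Dox replicate 2 or 4.

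Of 27 other NRF2 targets 19 were tested. ME1, ABCC3, AKR1B10, AKR1C1, AKR1C2, AKR1C3, GPX2 and NR0B1 were too low. After siIGF2BP2 3 passed as higher and 7 as lower, 52.6% of the 19, beside 36.8% of all genes and 18.4% in each direction. Among the lower ones were TKT (-0.26, SE 0.0340) and TALDO1 (-0.20, SE 0.0357), enzymes of the pentose phosphate pathway, and the transporter ABCC4 (-0.28, SE 0.0547). BLVRB, which acts downstream of heme breakdown, was higher (0.29, SE 0.0586), as was the ferritin heavy chain FTH1 (0.12, SE 0.0368), which no longer passed without siIGF2BP2 replicate 3. The median over the list was -0.066 against 0.011 over all genes. After Dox 3 fell and none rose in sgAAVS1 cells, 15.8% of the 19 beside 15.9% of all genes. PGD was among them (-0.16, adjusted p = 0.00033). In sgIGF2BP2 cells 2 rose and 4 fell, 31.6% beside 20.4% of all genes, among them FTL (0.15, adjusted p = 0.00153), TKT (-0.14, adjusted p = 0.00103) and TALDO1 (-0.14, adjusted p = 0.00187).

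Of the other 21 genes of the thioredoxin system, all tested, 4 passed as higher and 3 as lower after siIGF2BP2. That is 33.3%, below the 36.8% of all genes, so the count is no result about this list. PRDX6, a peroxiredoxin, went from 403, 397, 395 and 414 CPM to 282, 288, 323 and 298 CPM (-0.43, SE 0.0318), with no overlap. The mitochondrial PRDX3 was lower (-0.36, SE 0.0369), and PRDX5 (0.30, SE 0.0425) and the methionine sulfoxide reductase MSRB2 (0.33, SE 0.0903) were higher. TXNRD2, the mitochondrial thioredoxin reductase, was at 25.8, 24.9, 25.3 and 22.8 CPM with siControl and 28.3, 31.6, 29.7 and 28.3 CPM with siIGF2BP2, so this paralog was higher (0.25, SE 0.0703) where TXNRD1 was lower. After Dox in sgIGF2BP2 cells 4 rose and 2 fell, 28.6% of the 21 beside 20.4% of all genes. The sestrins, which are p53 and stress targets, led the rises: SESN1 went from 8.11, 5.58, 5.99 and 8.02 CPM to 14.4, 12.8, 11.2 and 14.3 CPM (0.96, adjusted p = 4.6e-10), and SESN2 rose by 0.59 (adjusted p = 0.000125). PRDX6 (-0.12, adjusted p = 0.00313) and PRDX3 (-0.12, adjusted p = 0.00986) fell there too. In sgAAVS1 cells 1 gene rose and 1 fell (9.52%, beside 15.9% of all genes), and in sgIGF2BP3 cells 1 fell (4.76%, beside 2.64%).

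Of 20 genes of the glutathione system 18 were tested, without GPX7 and GGT1. After siIGF2BP2 7 passed as higher and 3 as lower, 55.6% of the 18 beside 36.8% of all genes and 18.4% in each direction. The median was 0.045 against 0.011 over all genes. GSTK1, a glutathione transferase of mitochondria and peroxisomes, went from 77.1, 81.6, 79.1 and 81.6 CPM to 110, 114, 121 and 116 CPM (0.53, SE 0.0405), and MGST3 was higher by 0.45 (SE 0.0529). GSTP1, a cytosolic glutathione transferase, went from 479, 482, 453 and 480 CPM to 335, 350, 392 and 361 CPM (-0.40, SE 0.0363). The groups did not overlap for GSTK1 or GSTP1. The glutathione peroxidases GPX1 (0.38, SE 0.0426) and GPX4 (0.36, SE 0.0396), which like TXNRD1 are selenoproteins, were higher. GPX8 (-0.33, SE 0.0528) and the reductase GSR (-0.18, SE 0.0379) were lower. After Dox 4 rose and 1 fell in sgAAVS1 cells, 27.8% of the 18 beside 15.9% of all genes, with GPX3 up by 0.45 (adjusted p = 4.37e-05) and GPX4 down, at -0.15 (adjusted p = 0.00615). In sgIGF2BP2 cells also 4 rose and 1 fell, 27.8% beside 20.4% of all genes, with GPX1 up by 0.16 (adjusted p = 0.00345), a call lost without Dox replicate 2 (adjusted p = 0.132).

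After siIGF2BP3 none of the 4 lists had a gene called by edgeR, beside 2.34% of all genes. At an unadjusted p under 0.05 there were 2 regulators, 4 other targets, 3 thioredoxin genes and 1 glutathione gene. DESeq2 called 0, 1, 0 and 0, beside 3.12% of all genes. In sgIGF2BP3 cells Dox called none of the other targets or glutathione genes by edgeR, beside 2.64% of all genes. There were 2 and 3 at an unadjusted p under 0.05, and DESeq2 called 0 in both, beside 3.78% of all genes. Shares of all genes at the unadjusted threshold were not counted, so those counts are no result about the lists. With siControl against DMSO, 18.4% of all genes were called in sgIGF2BP2 cells and 19.4% in sgIGF2BP3 cells. Beside these, the lists had 36.4% and 27.3% (regulators), 15.8% and 26.3% (other targets), 38.1% and 33.3% (thioredoxin) and 22.2% and 27.8% (glutathione). Calls went in both directions in each list. PRDX1 is in the target and thioredoxin lists and GSR in the target and glutathione lists. Exons of FTH1, SQSTM1, TXNRD2, BACH1 and NFE2L2 overlap other genes of the table on the opposite strand, and those of KRT8 and KRT18 overlap each other. MAFG shares 105 exon bases with SIRT7 on the same strand, and NFE2L2 shares 1054 with a gene model that is not in the table. How the counting treated strand and shared bases is not stated, so those values are uncertain.

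**Figure D4:**
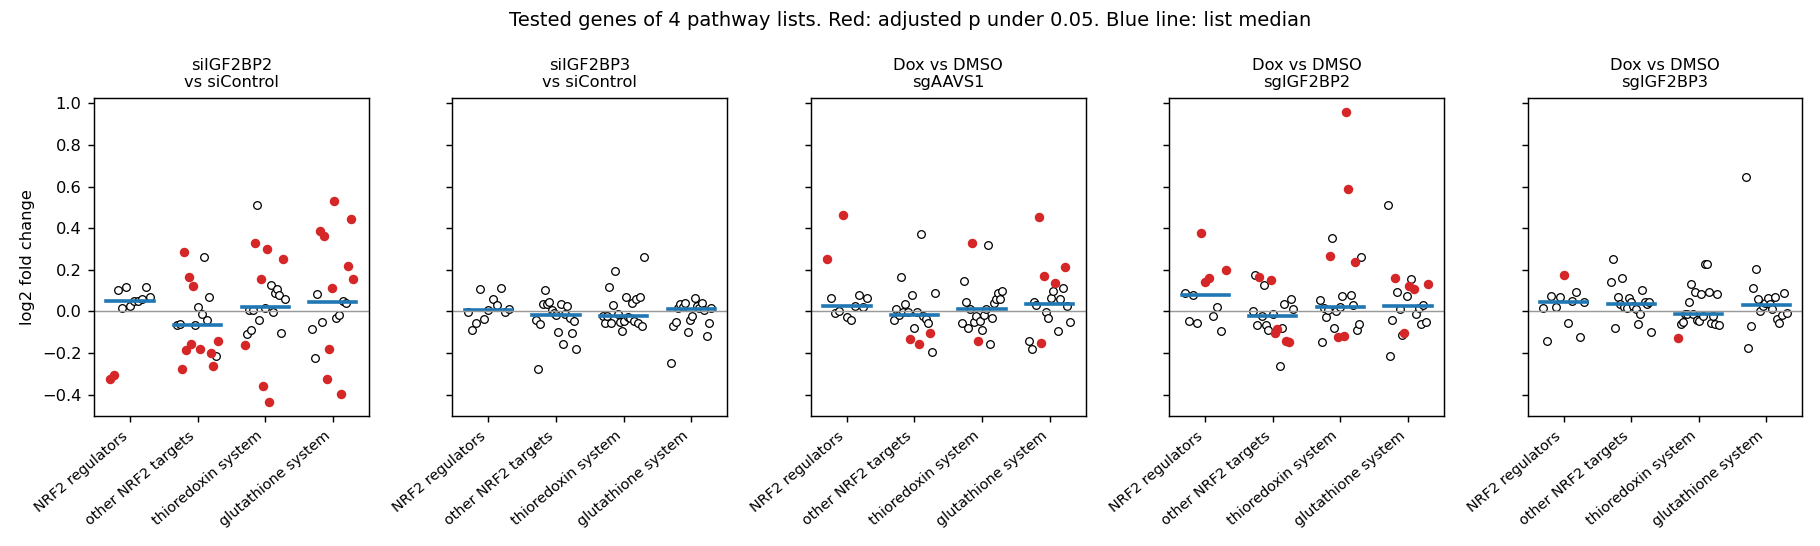
log2 fold change (vertical axis) of the tested genes of 4 pathway lists (NRF2 regulators, other NRF2 targets, thioredoxin system, glutathione system) in 5 treatment comparisons (panels), with calls in red and the list median as a blue line. Calls lie on both sides of 0 in 3 of the lists after siIGF2BP2, none is present after siIGF2BP3, and each median lies within 0.08 of 0.

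The genes outside the set whose CPM followed TXNRD1 most closely over the 40 libraries were HSPA9 (Pearson r = 0.984), SAP18 (0.965), YKT6 (0.963), RBM10 (0.961) and MRTO4 (0.956), out of 9957 genes compared on log2 CPM. The points share libraries and depth, and 4 of them are the siIGF2BP2 libraries. HSPA9, a mitochondrial chaperone, was at 957 CPM ± 21.0 with siControl and 639 ± 9.46 with siIGF2BP2 (n = 4), and all 5 genes were lower there, by -0.58 to -0.77. Over the 36 libraries without siIGF2BP2, r was 0.647, 0.772, 0.420, 0.339 and 0.091 in the same order. The likeness of RBM10 and MRTO4 was thus weak without the siIGF2BP2 libraries.

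Among the members TXN was the most like TXNRD1 over the 40 libraries (r = 0.701, rank 549), then GCLC (0.529), GCLM (0.338), SRXN1 (0.293), NQO1 (0.210), SLC7A11 (0.169), OSGIN1 (-0.221) and HMOX1 (-0.604). Without the siIGF2BP2 libraries the order changed over the other 36 libraries. GCLM stood at 0.781, TXN at 0.333, GCLC at 0.329, SLC7A11 at 0.231 and SRXN1 at 0.085. NQO1 stood at -0.027, OSGIN1 at -0.728 and HMOX1 at -0.870. Those 36 include the siControl groups, in which TXNRD1 and GCLM were lower and HMOX1 and OSGIN1 higher than with DMSO.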

How the data were processed

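The deposited values are raw counts per gene in a single table whose 40 columns each name 1 library. Reads were aligned with STAR 2.7.5c to hg38 after bcl2fastq 2.20.0.422, per the submitters' processing notes. The counting tool, its annotation and its use of strand are not given in the sources used here. Genes were named with GENCODE 29, which named 19847 of 19962 identifiers.

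edgeR 4.0.16 (R 4.3.3) fitted all 40 libraries with 1 coefficient per group, TMM scaling and the filterByExpr filter. The 11428 genes kept hold 99.98% of counts. Its quasi-likelihood test was adjusted over those genes by Benjamini-Hochberg, with calls at an adjusted p under 0.05. The standard error is the log2 fold change divided by the root of F. TMM factors were 0.978 to 1.03 and the biological coefficient of variation 3.79%. The chi-square per gene between replicates was 1.49 to 16.3, above sampling noise, so no library duplicated another of its group. Libraries of different groups were not compared in this way. The fit was tested on simulated data.

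Members and lists were chosen with earlier results of these data known. Named genes are the members, up to 3 called rises and 3 falls per list and treatment comparison, NFE2L2, KEAP1, BACH1, and the 5 genes most correlated with TXNRD1 (log2 CPM, prior count 2, mean log2 CPM at least 2). Not all of them are printed. Alternatives were RLE scaling, DESeq2 1.42.0, no filter, only the groups compared, a replicate block and leaving out each library.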

Additional observations from a re-analysis of the deposited data

Results flagged for a closer look

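In 7 of the 90 sets of 4 libraries (9 members in 10 groups) 1 library stood apart from the other 3 by Dixon's criterion, where chance gives about 1 in 20. They were TXNRD1 in sgIGF2BP2 DMSO replicate 1 (410 CPM) and in sgIGF2BP2 Dox replicate 4 (387 CPM), NQO1 in sgIGF2BP3 Dox replicate 4 (79.6 CPM), GCLM in sgIGF2BP3 siControl replicate 1 (24.6 CPM), GCLC in sgIGF2BP2 DMSO replicate 2 (29.9 CPM), HMOX1 in sgIGF2BP3 siIGF2BP3 replicate 4 (101 CPM) and OSGIN1 in sgIGF2BP2 DMSO replicate 2 (12.1 CPM).

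In 3 cases a treatment effect differed between lines or siRNA pools by edgeR's test of the difference itself. The Dox effect on HMOX1 was higher in sgIGF2BP2 than in sgAAVS1 cells by 0.30 on the log2 scale (adjusted p = 0.0016). The effects of siIGF2BP2 and siIGF2BP3 differed by 0.30 for HMOX1 and by -0.18 for TXN. The last 2 contain the comparison in which TXNRD1 was noticed and are description.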

How the results depend on the processing

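Over the alternatives, 65 of 88 log2 fold changes of the 8 tested members kept their side of the threshold throughout, and no called change reversed. The count of 4 members called by Dox in sgAAVS1 cells was 2 with no filter, with only the groups compared and with the replicate block, and 2 to 3 when a library was left out. The 1 called in sgIGF2BP3 cells was 0 with RLE scaling and 0 to 1 with a library left out. The 3 called by siControl against DMSO in sgIGF2BP3 cells were 5 with only the groups compared. Leaving out 1 library gave 2 to 4 members for siIGF2BP2, 2 to 4 for Dox in sgIGF2BP2 cells and 1 to 3 for siIGF2BP2 minus siIGF2BP3. It gave 1 to 2 and 0 to 1 for the differences of Dox effects (sgIGF2BP2 and sgIGF2BP3 against sgAAVS1). Over the alternatives the share of all genes called by Dox was 11.0% to 17.5% (sgAAVS1), 14.6% to 20.6% (sgIGF2BP2) and 0.942% to 4.28% (sgIGF2BP3). It was 25.2% to 36.6% for siIGF2BP2 and 12.9% to 19.8% for siIGF2BP2 minus siIGF2BP3. For siControl against DMSO in sgIGF2BP3 cells it was 13.6% to 24.8%. For the differences of Dox effects it was 4.66% to 10.2% and 3.73% to 12.3%.

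Same-number correlations between groups were small: of 28, -0.0896 to 0.0924, none was over 0.1, and 8 were best with their own number. In siControl and DMSO of sgIGF2BP2 cells each library correlated best with its own number (r 0.0437 to 0.0924). Whether libraries of equal number were handled together was not tested. The replicate block moved Dox in sgAAVS1 cells from 4 to 2 members, Dox in sgIGF2BP2 cells from 4 to 5 and siIGF2BP2 minus siIGF2BP3 from 2 to 3. With the block 15.9%, 20.2% and 18.6% of all genes were called in these comparisons.

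Over all genes, 267 calls after siIGF2BP3 were 465 with only the groups compared, and 302 after Dox in sgIGF2BP3 cells were 477. The latter were 162 and 151 without DMSO replicates 3 and 4, and 172 and 108 without Dox replicates 2 and 4. For Dox in sgIGF2BP3 minus sgAAVS1 cells, 889 were 540 and 1415 without sgAAVS1 DMSO replicates 2 and 4, and 428 without sgIGF2BP3 Dox replicate 4. The cause was not tested. SRXN1 and SLC7A11, with 36 to 172 and 61 to 165 counts per library, have the widest errors.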
